A study of Mus musculus with 16 samples.

Results

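The genes described here encode the surface proteins by which stem and progenitor cells of mouse bone marrow are gated in flow cytometry. They were taken by name from a list of 10 names, of which Slamf2 is another name of Cd48, so that 9 genes remained of the 47937 gene identifiers in the count tables: Kit, Ly6a, Flt3, Cd48, Slamf1, Cd34, Fcgr3, Fcgr2b and Cd27. All 9 had counts, and 8 of them passed the filter of a mean above 100 counts in at least 1 group, which 11831 genes passed. Slamf1 did not pass it.

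Multipotent progenitors (MPPs) are recognised by the antigens on their surface and not by their shape. Cells without the antigens of mature lineages that carry both Sca-1, the product of Ly6a, and c-Kit, the product of Kit, are called LSK cells. Within this compartment the receptor FLT3 and the SLAM family proteins CD150 (Slamf1) and CD48 (Cd48) separate stem cells from MPPs, while CD34, CD27 and the Fc receptors CD16 (Fcgr3) and CD32 (Fcgr2b) are used to follow the steps toward committed myeloid and lymphoid progenitors. A gate selects cells by protein on the surface, and the transcript of the same gene can be high or low in cells of 1 gate.

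RNA of MPP3 and MPP4 cells from C57BL/6 bone marrow was sequenced in 16 libraries, in 4 groups of 4, taken to come from 8 mice. The labels give MPP3 as LSK cells without CD150 and with CD48, and MPP4 by the same gate with Flt3 added. The antibody panel of the study for these sorts held lineage antigens, Sca-1, c-Kit, CD150, CD48 and Flt3, and described MPP3 as Flt3-, whereas CD34, CD16/32 and CD27 were not part of it. The groups called WT carried the label Ebf1fl/fl Tie2Cre+/+ and those called KO the label Ebf1fl/fl Tie2Cre +/cre, so both carry floxed alleles of Ebf1, a transcription factor of the B lineage, per the labels. The series description instead gives the WT mice unfloxed Ebf1 with the transgene, and counts cannot tell these apart. Tie2-Cre acts in endothelium and in blood stem cells and hence in all blood cells, not in MPPs alone. Bones of each mouse were pooled, and the mice were 11 to 12 weeks old in WT and 9 to 11 weeks old in KO, with 2 females and 2 males in each genotype.

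Libraries held between 24823708 and 48703193 counts, and a count of 3 corresponded to between 0.0619 and 0.118 normalised CPM, that is, counts scaled to a common library size after TMM normalisation. Ebf1 itself stood at 3.32 to 6.19 CPM in MPP4 WT and at 17.6 to 24.9 CPM in MPP4 KO, so its gene count ran against the label there. In MPP3 it was at 0.150, 0.828, 2.19 and 2.07 CPM in WT and at 0.602, 0.199, 2.23 and 0.151 CPM in KO, with overlap (log2 fold change -0.73 ± 0.69, edgeR FDR 0.772). WT and KO below name the libraries so labelled. Both libraries of mouse WT1 lay at the far end of the second principal component, next to those of mouse WT2, and counts of called genes are also given without them where this changed them. Of the antigens of mature lineages, the granulocyte gene Ly6g was at 0 counts in 14 of 16 libraries, whereas Itgam (CD11b) and the natural killer cell gene Klrb1c had counts in all 16. The means of Itgam were 5.49 ± 1.87 CPM in MPP3 WT, 7.92 ± 0.662 in MPP3 KO, 6.53 ± 1.57 in MPP4 WT and 9.55 ± 1.45 in MPP4 KO (SD, n = 4), and those of Klrb1c lay between 1.76 and 2.61 CPM.

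Before the values, a few sequences show what the reads of these genes can and cannot resolve, and which promoters carry the letters that EBF proteins bind. The RefSeq promoter table (GRCm38.p6, 250 bases before to 50 bases after a start) held 8 of the 9 genes. The core of the EBF motif, CCCNNGGG, which reads the same on both strands, was present in the promoters of Kit, Slamf1, Fcgr3 and Cd27, 4 of 8, and in 13.7% of 32851 promoters of the same length. The promoter of Kit (chr5:75574737-75575036, plus strand, 69.0% G or C) is printed because Kit differed between genotypes in MPP4, and that of Flt3 (chr5:147400440-147400739, minus strand, 61.0% G or C) because its gene is paired with Kit in the gates and held no match. The promoter of Cd48 (chr1:171681742-171682041, plus strand) is printed because Cd48 differed between the sexes. It was the only 1 of the 8 with a match to the ETS motif CCGGAA (14.9% of all promoters) or the RUNX motif TGTGGT (16.8%), each searched on both strands, and none of the 8 held the GATA motif AGATAA (11.2%). Capitals mark the EBF core in Kit, at position -164 from the start, and in Cd48 the RUNX motif at -76 and the ETS motif, read on the other strand, at 8. A match is a stretch of letters and not a site shown to be bound.
Kit: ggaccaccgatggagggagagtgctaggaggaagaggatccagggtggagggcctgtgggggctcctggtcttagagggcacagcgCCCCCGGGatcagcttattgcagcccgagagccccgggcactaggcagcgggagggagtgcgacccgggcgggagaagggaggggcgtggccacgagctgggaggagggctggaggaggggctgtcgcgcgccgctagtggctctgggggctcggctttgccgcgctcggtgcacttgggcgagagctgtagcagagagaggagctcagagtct
Flt3: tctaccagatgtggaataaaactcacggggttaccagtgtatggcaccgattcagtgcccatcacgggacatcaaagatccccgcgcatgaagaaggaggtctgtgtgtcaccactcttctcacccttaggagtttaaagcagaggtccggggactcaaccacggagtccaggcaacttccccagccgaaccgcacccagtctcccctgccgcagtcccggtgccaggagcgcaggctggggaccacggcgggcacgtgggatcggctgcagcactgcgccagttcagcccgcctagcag
Cd48: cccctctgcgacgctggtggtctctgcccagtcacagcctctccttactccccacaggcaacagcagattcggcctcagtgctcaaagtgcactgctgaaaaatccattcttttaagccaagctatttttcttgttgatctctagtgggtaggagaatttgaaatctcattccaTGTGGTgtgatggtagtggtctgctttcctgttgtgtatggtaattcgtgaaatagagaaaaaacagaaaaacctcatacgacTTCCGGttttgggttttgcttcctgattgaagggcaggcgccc

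The genes of CD16 and CD32 lie close together on chromosome 1, with Fcgr4 between them, and share a stretch of coding sequence longer than a read. The longest identical run between the transcripts Fcgr2b-201 and Fcgr3-201 was 129 bases, all coding and spread over 2 exons, at chr1:170966674-170968081 in Fcgr2b and chr1:171054167-171057792 in Fcgr3, both on the minus strand. It is printed because a read of 100 bases that falls wholly inside it cannot be given to either gene unless its mate lies outside it.
Run shared by Fcgr2b and Fcgr3: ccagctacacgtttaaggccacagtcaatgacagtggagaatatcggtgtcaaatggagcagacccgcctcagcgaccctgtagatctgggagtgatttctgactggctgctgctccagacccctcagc
Of all windows of 100 bases in the transcripts of Fcgr3, 2.54% also occurred in another gene, always Fcgr2b, and for Fcgr2b the share was 1.4%. Ly6a shared 1.45% of its windows with Ly6c1 and Cd27 1.19% with the microRNA gene Mir8113 inside it, while Kit, Flt3, Slamf1, Cd48 and Cd34 shared none. Exons of antisense genes overlapped 148 bases of the exons of Cd34 and 155 bases of those of Fcgr2b. Whether strand was used in counting is not stated, so reads of those stretches cannot be assigned with certainty.

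The first comparison, MPP3 against MPP4, asks whether the transcripts follow the gates by which the cells were sorted. For Flt3 it serves as a check of the labels, since Flt3 alone set the gates apart. Kit, Ly6a, Cd48 and Slamf1 were gated alike in both populations and give no such check. The counts of calls below include Flt3. In WT mice 7 of the 8 members tested passed an FDR under 0.1 (edgeR quasi-likelihood test, Benjamini-Hochberg over 11831 genes), 4 higher and 3 lower in MPP3, where 15.1% of all genes passed. In KO mice 5 of 8 passed, against 17.9% of all genes. Without mouse WT1 the calls in WT were 6 of 8, Cd34 being lost (FDR 0.168), with 12.8% of all genes. Of the antigens that made the gates, Flt3 was higher in the MPP4 libraries, and Slamf1 did not reach the count filter in any group.

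**Figure D1:**
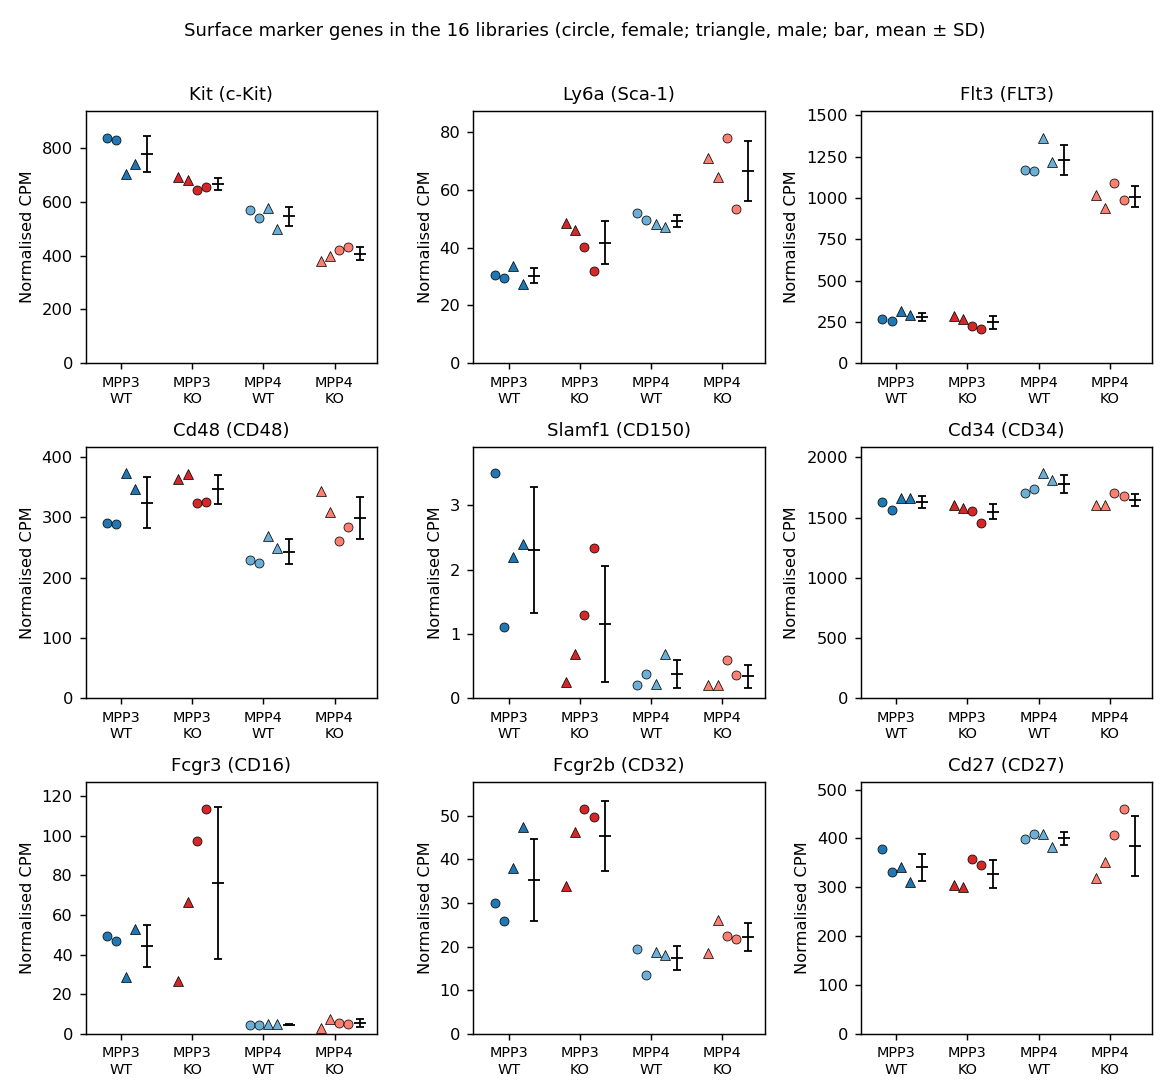
Normalised CPM (y axis) of the 9 surface marker genes in each of the 16 libraries, by population and genotype (x axis), with circles for female and triangles for male mice and bars for the mean ± SD of 4 libraries. Flt3 lies between 205 and 313 CPM in the MPP3 libraries and between 938 and 1362 CPM in the MPP4 libraries, and Slamf1 does not exceed 3.49 CPM.

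Flt3 (chromosome 5, 147330741 to 147400489, minus strand), the receptor tyrosine kinase for FLT3 ligand that marks progenitors with lymphoid potential, separated the populations most clearly of the gate genes. It was at 266, 256, 313 and 288 CPM in the 4 MPP3 WT libraries, in the order of the mouse numbers, and at 1172, 1164, 1362 and 1217 CPM in MPP4 WT. The MPP3 KO libraries held 284, 269.7, 228 and 205 CPM and the MPP4 KO libraries 1015, 938, 1093 and 989 CPM. No MPP3 library reached the lowest MPP4 library, and MPP3 was 4.38-fold lower in WT (log2 fold change -2.13 ± 0.10 SE, edgeR FDR 7.71e-10) and 4.09-fold lower in KO (-2.03 ± 0.10, FDR 6.36e-10). The Flt3 transcript was thus lower and not absent in cells sorted as MPP3, where it still ranked 609th in WT and 781st in KO among 11831 genes by level.

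Kit (chromosome 5, 75574916 to 75656722, plus strand) encodes the receptor for stem cell factor, and every cell of the LSK gate must carry it. It was at 838, 833, 705 and 743 CPM in MPP3 WT against 571, 542, 578 and 498 CPM in MPP4 WT, and at 693, 682, 644 and 655 CPM in MPP3 KO against 381, 398, 423 and 431 CPM in MPP4 KO. The MPP3 libraries of each genotype lay above the MPP4 libraries, by 0.51 ± 0.07 on the log2 scale in WT (edgeR FDR 5.81e-05) and by 0.71 ± 0.07 in KO (FDR 1.66e-06). Ly6a (chromosome 15, 74994877 to 74998031, minus strand), which encodes the small GPI-anchored protein Sca-1, went the other way. It was at 30.5, 29.5, 33.5 and 27.5 CPM in MPP3 WT and at 52.1, 49.5, 48.3 and 47.3 CPM in MPP4 WT, a log2 difference of -0.70 ± 0.13 (edgeR FDR 0.00135), and the difference in KO was -0.68 ± 0.13 (FDR 0.00159). Both antigens of the LSK gate therefore had transcripts of unequal level in the populations sorted from it, in opposite directions.

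Among the SLAM genes, Cd48 (chromosome 1, 171682009 to 171705258, plus strand), whose GPI-anchored product is the ligand of CD244 and CD2, was present in both populations. Its levels were 289.9, 288, 372 and 346 CPM in MPP3 WT and 229, 224, 268 and 249.9 CPM in MPP4 WT, higher in MPP3 by 0.42 ± 0.10 (edgeR FDR 0.00923). The difference in KO, 0.21 ± 0.10, did not pass (FDR 0.189), though it passed when each mouse was held as a block (FDR 0.00636). Slamf1 (chromosome 1, 171767127 to 171801184, plus strand), which encodes CD150, the antigen whose absence defines both gates, had few counts. The MPP3 WT libraries contained 116, 28, 91 and 95 counts of it, and the MPP3 KO libraries 10, 21, 49 and 93. In MPP4 the counts were 9, 11, 11 and 29 for WT mice and 7, 8, 16 and 13 for KO mice. These counts amount to 0.202 to 3.49 CPM, and even the highest group mean would rank 11516th among the 11831 genes tested. Under the filter of edgeR's filterByExpr, which retained the gene, Slamf1 was higher in MPP3 than in MPP4 by 2.60 ± 0.63 in WT (FDR 0.0148) and by 1.76 ± 0.62 in KO (FDR 0.0969). With all genes of at least 1 count tested, the value in KO did not pass (FDR 0.139), and its KO libraries overlapped between the populations.

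The genes that the sorting panel did not use also differed. Fcgr3 (chromosome 1, 171051174 to 171064935, minus strand), the activating Fc receptor CD16 that marks granulocyte and monocyte progenitors (GMPs), was at 49.3, 46.8, 28.6 and 52.7 CPM in MPP3 WT and at 4.51, 4.43, 4.89 and 4.70 CPM in MPP4 WT. The MPP3 KO libraries held 26.4, 66.3, 97.2 and 114 CPM and the MPP4 KO libraries 3.14, 7.58, 5.63 and 5.13 CPM. All 8 MPP3 libraries were above all 8 MPP4 libraries, 9.55-fold in WT (log2 fold change 3.26 ± 0.37, edgeR FDR 1.19e-05) and 14.1-fold in KO (3.82 ± 0.37, FDR 2.44e-06). Fcgr2b (chromosome 1, 170958617 to 170976547, minus strand), the inhibitory receptor CD32, differed by less: 30.0, 25.9, 38.0 and 47.3 CPM in MPP3 WT against 19.4, 13.4, 18.7 and 18.0 CPM in MPP4 WT, a log2 fold change of 1.02 ± 0.19 (FDR 0.00123), and 1.03 ± 0.19 in KO (FDR 0.000958). In bulk RNA, more cells with a transcript and more transcript in each cell cannot be told apart.

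Cd34 (chromosome 1, 194938819 to 194961279, plus strand), a sialomucin of early progenitors, was among the most abundant transcripts, between 1457 and 1866 CPM in all libraries. In WT it held 1627, 1562, 1662 and 1663 CPM in MPP3 and 1699.8, 1733, 1866 and 1810.0 CPM in MPP4, a small difference of -0.13 ± 0.05 that narrowly passed (edgeR FDR 0.0966) and was retained in 7 of 26 alternative analyses. Cd27 (chromosome 6, 125232622 to 125237010, minus strand), a costimulatory receptor of the TNF receptor family, held 378, 332, 342 and 311 CPM in MPP3 WT and 398, 409.8, 409.6 and 382 CPM in MPP4 WT. Its difference, -0.23 ± 0.10 in both genotypes, did not pass (FDR 0.159 in WT and 0.134 in KO) but did with the mouse as a block (FDR 0.0112 and 0.0125).

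Each mouse was taken to give both populations, so the difference can also be read within a mouse. Kit, Cd48, Slamf1, Fcgr3 and Fcgr2b were higher in MPP3 in 8 of 8 mice, and Flt3, Ly6a and Cd27 were lower in 8 of 8. Cd34 was lower in 7 of 8, with mouse KO1 at 0.00 on the log2 scale. Within a mouse, the log2 ratio of MPP3 to MPP4 ran from 2.55 to 4.47 for Fcgr3, from 0.29 to 0.86 for Kit and from -2.27 to -1.80 for Flt3. The lowest ratio of Fcgr3 was that of mouse WT3, which was also the lowest for Kit.

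**Figure D2:**
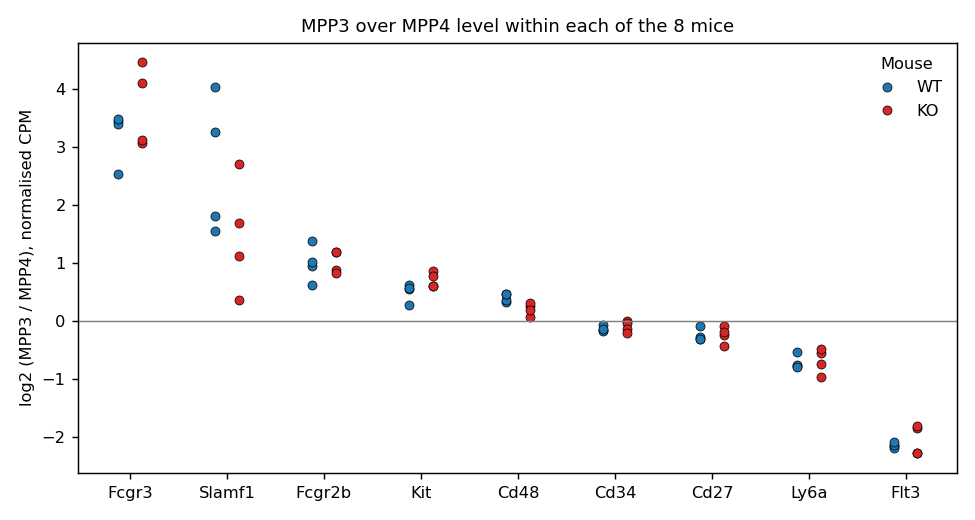
Log2 ratio of MPP3 to MPP4 within each of the 8 mice (1 point a mouse) for the 9 surface marker genes, with WT and KO mice drawn apart. Points of Fcgr3, Slamf1, Fcgr2b, Kit and Cd48 lie above 0 in every mouse, and those of Flt3, Ly6a and Cd27 lie below it.

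Levels of different genes were compared as CPM per kb of exon. In MPP3 WT the order was Cd48 (273), Cd34 (223), Cd27 (146), Kit (87.5), Flt3 (45.5), Fcgr3 (25.5), Ly6a (25.1), Fcgr2b (6.10) and Slamf1 (0.373), all in CPM per kb. Only the library values of Fcgr3 and Ly6a, among neighbours in that order, overlapped. In MPP4 WT the order was Cd34 (244), Cd48 (204), Flt3 (199), Cd27 (172), Kit (61.4), Ly6a (40.9), Fcgr2b (3.00), Fcgr3 (2.67) and Slamf1 (0.0607), with overlap between Cd48 and Flt3 and between Fcgr2b and Fcgr3. CD16 thus stood above CD32 per kb in MPP3 but not above it in MPP4. In MPP4 KO the mean of Ly6a, 55.3 ± 8.61 CPM per kb (SD, n = 4), was above that of Kit, 45.8 ± 2.59, whereas in MPP4 WT Kit was above Ly6a in every library. In MPP4 KO those library values overlapped.

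The comparison of KO with WT asks whether the gate antigens' transcripts differed between the libraries labelled KO and WT. In MPP3 none of the 8 members tested passed (0 of 8 by edgeR at an FDR under 0.1, against 0.0676% of all genes), with 3 at an unadjusted p under 0.05, namely Kit, Ly6a and Fcgr3, against 10.5% of all genes, and 1 by DESeq2, Ly6a, where 1.82% of all genes passed. In MPP4 1 of 8 passed, Kit, against 0.0169% of all genes, with 5 at an unadjusted p under 0.05 (Kit, Ly6a, Cd48, Flt3 and Cd34), against 12.8% of all genes. DESeq2 called 2 in MPP4, Kit and Ly6a, against 2.58% of all genes. Without mouse WT1, edgeR called 0 in both populations, beside 0.0677% of all genes in MPP3 and 0.0339% in MPP4. With labels that give no separate litters or batches, these p-values measure the spread between libraries within the groups. That spread was pooled over all 16 libraries without a term for the mouse, though MPP3 and MPP4 libraries were taken to share mice.

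Kit was lower in all 4 KO libraries than in any WT library in both populations, the values being those given above. In MPP4 the mean fell from 547 ± 36.04 to 408 ± 23.1 CPM (SD, n = 4), a log2 fold change of -0.42 ± 0.07 or -25.4% (95% interval -0.56 to -0.28 on the log2 scale, edgeR FDR 0.0560). In MPP3 the means were 779 ± 66.3 and 669 ± 22.7 CPM, with a log2 fold change of -0.22 ± 0.07 or -14.2% that did not pass (edgeR FDR 0.248). The call in MPP4 was retained in 20 of 27 alternatives, with FDR from 2.74e-05 to 0.359, while the log2 fold change stayed between -0.46 and -0.39 in all 27. It was lost with age as a term (FDR 0.259), with the replicate number as a block (FDR 0.359) and without mouse WT1 (FDR 0.103). It was also lost without MPP4 WT replicate 1 (0.114) or 3 (0.285) or MPP4 KO replicate 1 (0.188) or 2 (0.229), each value being the FDR.

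Ly6a, the other antigen of the LSK pair, was measured at 48.5, 46.2, 40.1 and 32.1 CPM in MPP3 KO and at 70.9, 64.3, 77.9 and 53.5 CPM in MPP4 KO. In MPP4 these were all above the WT libraries given above, and in MPP3 the lowest KO library was below the highest WT library. The log2 fold changes were 0.46 ± 0.13 in MPP3 (37.9%, edgeR FDR 0.195) and 0.44 ± 0.13 in MPP4 (35.2%, FDR 0.193), neither of which passed, while DESeq2 gave FDR values of 0.0506 and 0.0618. In MPP3 the WT and KO libraries did not overlap for 1 member, Kit, where 2.41% of all genes were lower in KO without overlap and 2.17% higher. In MPP4 they did not overlap for 3 members, with Ly6a higher in KO, against 2.83% of all genes, and Kit and Flt3 lower, against 4.44%.

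Flt3 in MPP4 had means of 1229 ± 92.1 CPM in WT and 1009 ± 64.4 CPM in KO (SD, n = 4), a log2 fold change of -0.28 ± 0.10 that did not pass (edgeR FDR 0.229), and the value in MPP3 was -0.19 ± 0.10 (FDR 0.525). Cd48 was at 363, 371, 324 and 326 CPM in MPP3 KO and at 343, 308, 261 and 283 CPM in MPP4 KO. Its log2 fold change was 0.30 ± 0.10 in MPP4 (edgeR FDR 0.226), which passed with sex as a term (FDR 0.0495), and 0.09 ± 0.10 in MPP3 (FDR 0.798). The log2 fold change of Slamf1 in MPP3 was -0.98 ± 0.59 (FDR 0.720, filterByExpr), within the spread of its libraries.

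For Cd34 the fold changes were small and closely bounded, -0.07 in MPP3 (95% interval -0.17 to 0.02) and -0.11 in MPP4 (-0.21 to -0.01), with edgeR FDR values of 0.637 and 0.319. Those of Cd27 were -0.06 in both populations (intervals -0.26 to 0.15 in each, FDR 0.893 and 0.846). The 4 MPP4 KO libraries of Cd27 were spread more widely, at 319.8, 352, 407 and 461 CPM, than the MPP4 WT libraries. Of the 8 members tested, Fcgr3 had the largest fold change in MPP3, 0.78 ± 0.33, with an interval from 0.08 to 1.48 (edgeR FDR 0.430). Its KO libraries ran from 26.4 to 114 CPM, so the lowest library of the group was below every WT library and the other 3 above all of them. Without MPP3 KO replicate 1 the fold change was 1.06 (FDR 0.0987). In MPP4 it was 0.21 ± 0.35 (FDR 0.833), and the log2 fold change of Fcgr2b was 0.36 ± 0.18 in MPP3 and 0.35 ± 0.19 in MPP4 (FDR 0.529 and 0.444).

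In MPP3 the levels of Fcgr3 moved with those of GMP markers. The 9 markers, all of which passed the filter, summed to 9302, 8034, 6106 and 9972 CPM in MPP3 WT and to 7224, 12852, 16309 and 16385 CPM in MPP3 KO, with the same library lowest in each group as for Fcgr3. In MPP4 the sums were 2449 to 3111 CPM in WT and 2773 to 4084 CPM in KO, and the MPP4 WT library with the highest Fcgr3, that of mouse WT3, had the lowest sum. Their part in the values of Fcgr3 was not tested.

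**Figure D3:**
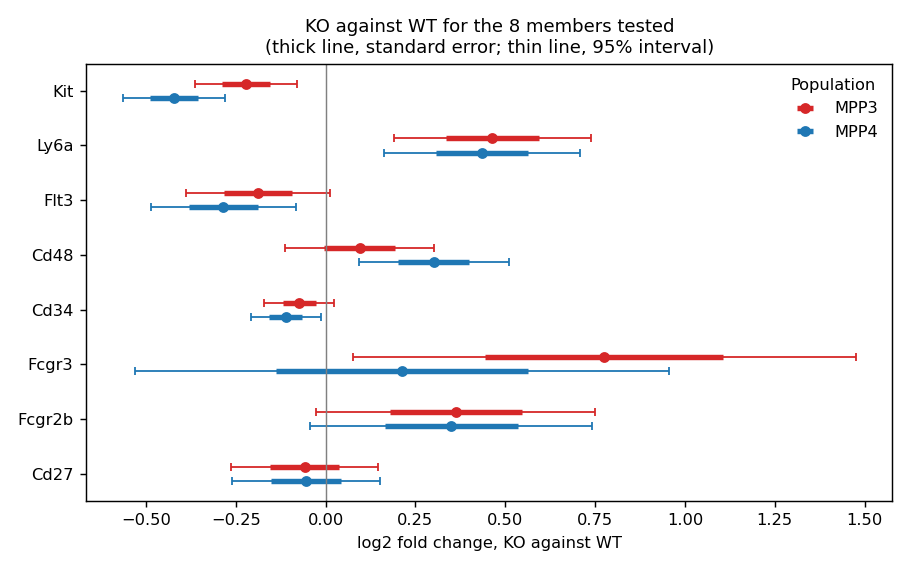
Log2 fold change of KO against WT (x axis) with its standard error (thick line) and 95% interval (thin line) for the 8 members that passed the filter, in MPP3 and MPP4. Kit lies below 0 in both populations (-0.22 and -0.42) and Ly6a above it (0.46 and 0.44), and only Kit in MPP4 passed an FDR under 0.1.

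The ratio of 2 genes within a library does not depend on how libraries are scaled, and 3 ratios were tested in each population. The log2 ratio of Ly6a to Kit counts was -4.69 ± 0.20 in MPP3 WT and -4.02 ± 0.23 in MPP3 KO, and -3.47 ± 0.08 in MPP4 WT against -2.63 ± 0.27 in MPP4 KO (SD, n = 4). It was higher in all 4 KO libraries than in any WT library, by 0.67 in MPP3 and 0.84 in MPP4 (2-sided exact permutation test, p = 0.0286, adjusted p = 0.0857 over 6 tests, in each). That p is the smallest that 70 regroupings allow, and with medians in place of means the adjusted p was 0.171 in each by the same exact test. Without single libraries the adjusted p of that test stayed under 0.1 in 1 of 8 cases in MPP3 and 4 of 8 in MPP4. In MPP4 the separation follows from Kit being lower and Ly6a higher in every KO library, so the ratio adds no separate support there. In MPP3 the gap was narrow, as the highest WT library was at -4.39 and the lowest KO library at -4.35. Flt3 to Kit differed by 0.02 in MPP3 (exact permutation test, adjusted p = 0.83) and by 0.14 in MPP4 (adjusted p = 0.343). Fcgr3 to Fcgr2b differed by 0.24 in MPP3 (adjusted p = 0.720) and by -0.21 in MPP4 (adjusted p = 0.557), by the same exact test.

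**Figure D4:**
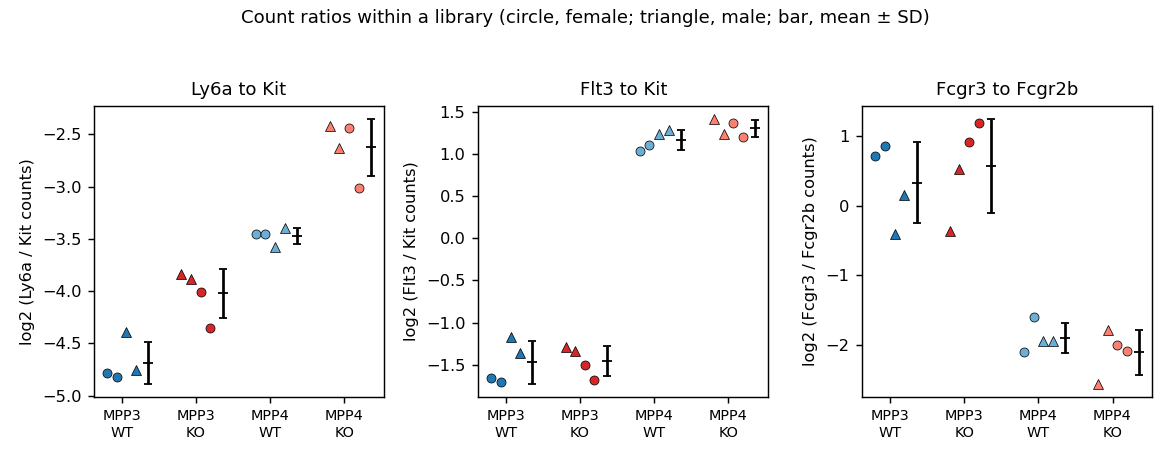
Log2 ratio of the counts of 2 members in each library (circles for female and triangles for male mice, bars for mean ± SD of 4) by population and genotype. The KO libraries lie above the WT libraries for Ly6a to Kit in both populations, and overlap them for Flt3 to Kit and Fcgr3 to Fcgr2b.

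Whether the effect of the KO label differed between MPP3 and MPP4 was tested as an interaction. No member passed (0 of 8 by edgeR and by DESeq2, with 0% of all genes passing by edgeR and 0.0676% by DESeq2, and 1 member at an unadjusted p under 0.05, against 2.28% of all genes). That member was Kit, at 0.20 ± 0.09 (95% interval 0.00 to 0.40, FDR 1.00). The point estimates of the 8 ran from -0.21 for Cd48 to 0.56 for Fcgr3, whose 95% interval ran from -0.46 to 1.58. These values come from the fit without a term for the mouse. With each mouse as a block, 0 members passed, beside 0.0169% of all genes. Over 25 alternatives the value of Kit ran from 0.16 to 0.24, with an FDR no lower than 0.816.

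Sex was balanced within genotypes, and the libraries of male and female mice were compared in a model with the 4 groups, sex and the mouse as a random block (limma voom), a comparison added after values had been seen. It called 3 of the 8 members at an FDR under 0.1, 1 higher and 2 lower in males, against 8.76% of all genes. Cd48 was higher in both males than in both females of each of the 4 groups. In MPP3 WT the females held 288 and 289.9 CPM and the males 346 and 372 CPM, and in MPP4 WT the females 224 and 229 CPM and the males 249.9 and 268 CPM. In MPP3 KO the corresponding values were 324 and 326 against 363 and 371 CPM, and in MPP4 KO they were 261 and 283 against 308 and 343 CPM. The log2 difference of Cd48, male over female, was 0.23 ± 0.04 (limma FDR 0.00920), and it passed in all 10 alternatives, at 0.21 to 0.27, among them age as a term and leaving out both libraries of any 1 mouse.

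Fcgr3 was lower in males, with a log2 difference of -0.91 ± 0.26 (limma FDR 0.0488), as was Cd27, with -0.18 ± 0.06 (limma FDR 0.0800). The order for Fcgr3 was clear only in MPP3 KO, with 97.2 and 114 CPM in females against 26.4 and 66.3 CPM in males, and in the other groups the sexes overlapped or lay the other way. Its call was lost in 5 of 10 alternatives, among them age as a term (FDR 0.141) and leaving out mouse WT3 (0.127), KO1 (0.162) or KO4 (0.220). Without mouse KO1 the difference was -0.46. The call of Cd27 was lost in 7 of 10 alternatives, with FDR 0.374 when age was a term and 0.131, 0.192, 0.165, 0.158, 0.123 and 0.238 without mouse WT1, WT4, KO1, KO2, KO3 and KO4. In KO the males were 10 and 9 weeks old and both females 11 weeks old, so that age moved with sex there. Other cells' markers moved with sex as well: of 7 mast cell and basophil markers tested, 4 were lower in males and none higher (Cma1 -2.26 ± 0.34, Gzmb -1.62 ± 0.38), and of 6 plasma cell markers 4 were lower (Igkc -2.33 ± 0.34). Of 9 GMP markers, 2 were lower in males and 0 higher. In MPP3 KO they summed to 16309 and 16385 CPM in females and to 7224 and 12852 CPM in males, and in the other groups the sexes overlapped. Their part in the values of the members was not tested, and Cma1 and Gzmb were at 0 counts in all 8 MPP4 libraries.

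**Figure D5:**
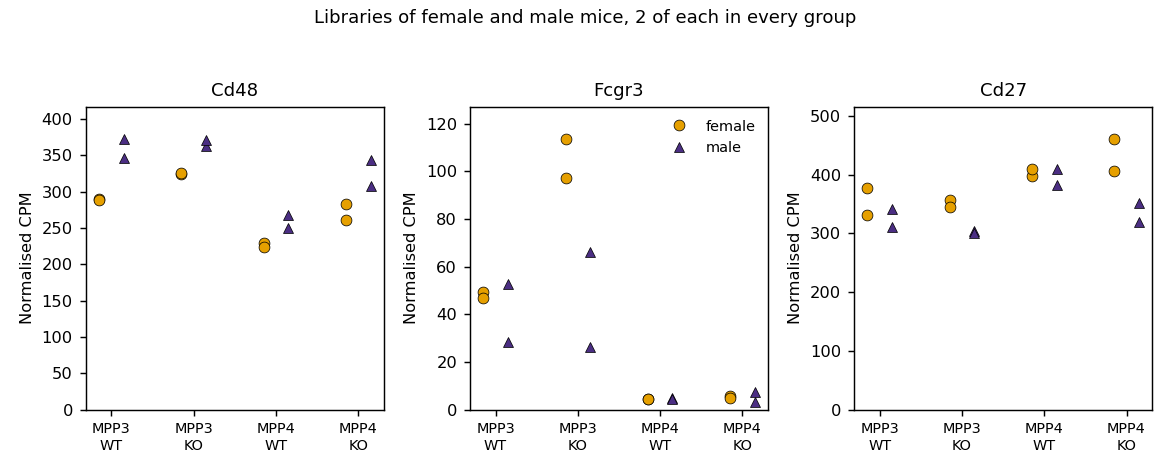
Normalised CPM of Cd48, Fcgr3 and Cd27 (y axis) in the libraries of female (circles) and male (triangles) mice, by population and genotype, with 2 mice of each sex in every group. For Cd48 both males lie above both females in each group, and for Fcgr3 the sexes are apart mainly in MPP3 KO.

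Part of the spread among libraries of a group belonged to the mouse. Deviations from the group mean in MPP3 and in MPP4 of the same mouse had a Pearson correlation of 0.83 for Cd48, 0.65 for Cd27, 0.63 for Fcgr2b, 0.59 for Ly6a and 0.58 for Fcgr3, over 8 mice whose libraries share sex and age. The values for Flt3 (0.20), Cd34 (-0.00) and Kit (-0.16) were near 0 or below. These correlations are descriptions and carry no test.

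The other genes of each receptor's pathway or family, and of other gates and cell types, came from 14 lists. Over all lists, 90 genes passed the filter, and edgeR called 0 in KO against WT in MPP3, 0 in MPP4 and 0 in the interaction. At an unadjusted p under 0.05 there were 24, 23 and 8 of these 90 genes, beside 10.5%, 12.8% and 2.28% of all genes. DESeq2 called 11, 10 and 1, beside 1.82%, 2.58% and 0.0676% of all genes. The lists were chosen with earlier results of these data known, so a share above that of all genes is no test of the lists. Of 6 plasma cell markers, 4 were lower in MPP3 KO and 1 in MPP4 KO at that unadjusted p, and of 9 GMP markers 5 and 2 were higher. DESeq2 called 2 and 0 of the former, lower, and 4 and 2 of the latter, higher. Among 21 genes of KIT and FLT3 signalling, 1 was higher and 4 lower in MPP3 KO at that unadjusted p, and 3 were higher and 7 lower in MPP4 KO. DESeq2 called 3 genes of this list in each population, Csf1r higher and Pdgfrb and Pik3cd lower in MPP3 KO, and Csf1r and Socs2 higher and Stat5a lower in MPP4 KO. In MPP4 the means were 32.3 ± 4.48 CPM in WT and 63.7 ± 15.6 CPM in KO for Csf1r, the receptor of macrophage colony-stimulating factor, a log2 fold change of 0.98 ± 0.20 (edgeR FDR 0.110). For Socs2, an inhibitor of cytokine signalling, they were 7.88 ± 6.96 and 36.6 ± 8.28 CPM, a log2 fold change of 2.22 ± 0.56 (edgeR FDR 0.166). Stat5a, a signal transducer that both receptors activate, stood at -0.23 ± 0.07 in MPP3 (edgeR FDR 0.279) and -0.26 ± 0.08 in MPP4 (FDR 0.193). The medians of this list were -0.07 in MPP3 and -0.15 in MPP4, beside -0.01 for all genes in both. Stem cell markers (9 genes) summed to 523 to 652 CPM in MPP3 WT against 462 to 522 CPM in MPP3 KO, and to 275 to 370 CPM in MPP4 WT against 215 to 285 CPM in MPP4 KO. Lymphoid progenitor markers (8 genes) summed to 318 to 387 CPM in MPP3 WT against 325 to 425 CPM in MPP3 KO, with overlap, and to 1804 to 2058 CPM in MPP4 WT against 2121 to 2560 CPM in MPP4 KO, without it. Most of that sum was Dntt, the terminal transferase of lymphoid progenitors, with means of 1258 ± 111 CPM in MPP4 WT and 1641 ± 222 CPM in MPP4 KO (SD, n = 4), whereas the chemokine receptor gene Ccr9 was at 13.96 ± 1.06 and 9.76 ± 1.46 CPM. Of the 8 genes, 1 had an unadjusted p under 0.05 in MPP4 and DESeq2 called 0. The part of either list in the values of Kit was not tested.

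Between the populations of WT mice, many of the listed genes differed, and the counts below stand beside 15.1% of all genes called in that comparison. In the KIT and FLT3 list 1 of 21 was higher in MPP3, Stat5a (0.67 ± 0.08 on the log2 scale, edgeR FDR 1.15e-05), and 5 were lower, among them the adaptor Dok2 (-0.79) and the related receptor Csf1r (-0.60). Of 4 tested SLAM family genes, Ly9 was lower (-0.61). Of 3 other Fc receptor genes, 2 were higher, Ms4a2, the beta chain of the IgE receptor (4.95), and Fcer1g, the gamma chain that carries the signal of CD16 (0.75). In the LY6 family 1 of 3 passed, Ly6c2, a marker of monocytic cells (3.49), so that this relative of Ly6a on chromosome 15 was higher in MPP3 and Ly6a lower. Among genes of the CD34 family and its ligands, Selp (2.30) was higher and Prkcd (-0.30) lower, and of 7 genes of CD27 signalling only Traf5 passed (-0.61).

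Among other antigens used in gates, Itga2b, which encodes CD41, was higher in MPP3 (3.08), as was Spn, CD43 (0.26), and the interleukin 7 receptor gene Il7r was lower (-2.71), 3 of 7 in all. Of 3 lineage antigens tested, Itgax was lower (-2.03). GMP markers were higher in 8 of 9 (median 1.66, Ms4a3 4.81, Elane 4.58, Fcnb 3.41) and lower in 1. Mast cell and basophil markers were higher in 6 of 7 (median 4.95, Gzmb 9.46, Cma1 9.21, Cpa3 5.39). Those of Gzmb and Cma1 rest on counts of 0 in MPP4 and on the prior count of the fit. Erythroid and megakaryocyte markers were higher in 4 of 7 (Gata1 2.92, Pf4 1.73), and stem cell markers in 4 of 8 (Tek 2.84, Fgd5 1.284). Lymphoid progenitor markers were lower in 7 of 8 (median -2.38, Dntt -4.78, Ccr9 -4.11, Rag1 -3.60). Plasma cell markers were divided, with Igkc (5.35) and Jchain (5.17) among 2 higher and Sdc1 (-3.71) among 2 lower of 6. Over all genes 15.1% were called and the median was -0.00, and all values in this paragraph are log2 fold changes of MPP3 over MPP4 called by edgeR.

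Genes whose levels were most like those of a member over the 16 libraries were ranked by the Pearson correlation of log2 normalised CPM, as a description. Since the libraries fall into 2 populations, a high value mainly means that a gene divides MPP3 from MPP4 as the member does. For Kit they were Ptgs1 (0.97), Stat5a (0.96) and Def8 (0.95), and for Flt3 AC174780.1, Mn1 and Ighv1-83 (0.98 each). For Ly6a they were H2-Aa (0.96), BC064078 (0.93) and Emb (0.93), and for Cd48 they included Trdmt1 and Mettl6 (0.88 each). Fcgr3 was most like Ly6c2 and Cldn15 (0.99 each) and Ms4a3 (0.98), and Fcgr2b most like Gstm1 (0.95), Csnk1e (0.94) and Slc6a13 (0.94). Cd34 was nearest to Arhgap18 (0.89), Hp1bp3 (0.87) and Runx2 (0.87), and Cd27 to Gtf3c5 (0.91), Ptpn6 (0.90) and Plxnd1 (0.89).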

How the data were processed

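Bulk RNA-seq counts of 16 libraries were analysed, 4 for each of MPP3 and MPP4 in WT and KO mice. The authors used STAR 2.7.3a to align paired-end reads of 100 bases to mm10, and featureCounts 2.0.0 to count the reads of each gene. The authors deposited raw counts with no normalisation, and a table of normalised signal, counts divided by DESeq2 1.28.1 size factors, which served only as a check. The annotation release and the use of strand in counting are not given in the sources used here. Symbols and coordinates came from a GENCODE annotation of GRCm38 (mm10), which named 47224 of 47937 identifiers.

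A gene was tested if its mean exceeded 100 counts in at least 1 group. The test was that of edgeR 4.0.16 in R 4.3.3 (TMM, quasi-likelihood F-test with legacy deviances), with all 16 libraries in 1 fit and no covariate, and genes were called at a Benjamini-Hochberg FDR under 0.1 over 11831 genes. DESeq2 1.42.0 and limma 3.58.1 served as alternatives, with other filters, size factors, sex or age as a term, blocks and left-out libraries. The male against female comparison (limma voom, mouse as random block, consensus correlation 0.28) was chosen after seeing the data. Ratios of counts were tested by exact permutation of 4 against 4 libraries. Scripts were tested on simulated data. Values are TMM-normalised CPM, and floors cover counting error only, since reads carried no molecular identifiers, while intervals of fold changes come from the edgeR fit and include the spread between libraries.

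MPP3 and MPP4 libraries with the same genotype and number were taken to come from 1 mouse. This rests on equal sex and age in the labels and on correlations of deviations of 0.27 to 0.55 in all 8 pairs. Mice KO3 and KO4 share sex and age, and MPP3 and MPP4 libraries of unequal number were not correlated. WT and KO libraries of equal number share only a number (-0.46 to 0.13). The members and lists were chosen with earlier results of these data known. Named are all members, Ebf1, list genes called in KO against WT or the interaction, for MPP3 against MPP4 in WT up to 3 called genes a list with the largest change, the 3 genes most like each member, and list genes at 0. A few genes that this rule names are not reported here. List genes named for KO against WT or for sex (Stat5a, Csf1r, Socs2, Pdgfrb, Pik3cd, Cma1, Gzmb, Igkc) and the lineage antigens Itgam and Klrb1c were chosen after their values were seen.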

Additional observations from a re-analysis of the deposited data

Results flagged for a closer look

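In MPP3 WT the log2 ratio of Ly6a to Kit counts of replicate 3 was -4.395, away from the other 3 libraries of that group, past the critical value of Dixon's test for 4 samples. It is the only 1 of 52 groups of 4 values to pass, where chance alone gives about 1 in 20. That mouse had the highest Ly6a (33.5 CPM) and the lowest Kit (705 CPM) of the MPP3 WT libraries.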

How the results depend on the processing

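Of the main results, which were ratios and counts of members called, 163 alternative values stayed the same, 4 were stronger, 23 weaker and 5 turned direction. For ratios, the same meant direction and side of the threshold, and for counts it meant a count near the main one. Of the fold changes of single members, 1041 kept direction and side of the threshold, 17 gained the call, 38 lost it and 32 turned. In KO against WT in MPP3, DESeq2 called 1 member, beside 1.82% of all genes. Leaving out libraries gave 0 to 1 there, beside 0.00843% to 1.16%. In MPP4 DESeq2 and sex as a term each called 2, beside 2.58% and 1.55% of all genes. Age as a term, the replicate block (replicate number) and leaving out mouse WT1 each called 0, beside 0.00845%, 0.00845% and 0.0339%. Leaving out single libraries gave 0 to 1 in MPP4, beside 0.00845% to 0.346%. The replicate block on the number changed no other call in KO against WT. With the replicate block (mouse), the population comparison called 8 members in WT mice and 7 in KO mice, beside 24.8% and 28.3% of all genes. Male against female gave 1 member with age as a term, beside 4.06% of all genes, and 1 to 3 without single mice, beside 2.15% to 11.7%. The ratio of Ly6a to Kit was 0.82 in MPP3 and 0.92 in MPP4 with the median instead of the mean, both at adjusted p = 0.171 by exact permutation, and 0.61 to 0.78 and 0.78 to 0.97 without single libraries. The ratio of Fcgr3 to Fcgr2b in MPP3 ran from -0.0094 to 0.55 without single libraries, and Flt3 to Kit in MPP3 from -0.054 to 0.12. Values near 0 turned. Cd27 in KO against WT was 0.11 in both populations with age as a term, and ran from -0.15 to 0.024 in MPP4 without single libraries. Its interaction was 0.0031 with age as a term, 0.013 with all genes, 0.0057 with filterByExpr, 0.0090 with the replicate block (mouse), 0.0041 with sex as a term, 0.049 without mouse WT1 and -0.083 to 0.095 without single libraries. The interaction of Fcgr2b was -0.12 without mouse WT1 and -0.11 to 0.19 without single libraries, and that of Ly6a -0.064 to 0.14. Fcgr3 in MPP4 ran from -0.0050 to 0.40. Without single mice, the male over female difference ran from -0.055 to 0.23 for Fcgr2b and from -0.036 to 0.16 for Ly6a. The cause was not tested. Among the members, low counts limit Slamf1, which went down to 7 in a library, as they do Ebf1 in MPP3, which went down to 5.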
